A study of Mus musculus with 4 samples.

Results

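The genes described here carried high acetylation of histone H3 at lysine 9 (H3K9ac) in leukaemic marrow of Mx-Cre transgenic mice and a lower rank in marrow without Cre. They were selected on the measured values themselves. All genes outside the X and Y chromosomes were ranked by their H3K9ac level in each of the 2 libraries, and the members are those among the first 1000 in the Cre-transgenic library and not among the first 1000 in the other. This gave 387 of 9398 ranked genes (9615 genes in the whole table). Another 387 genes were among the first 1000 only without Cre, a number that the equal limits make equal, 613 genes were in both groups, and 8011 in neither.

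H3K9ac was profiled by chromatin immunoprecipitation and sequencing (ChIP-seq) in bone marrow of mice whose Gfi1b alleles are floxed on both chromosomes and which carry the NUP98/HOXD13 fusion transgene. The groups were Gfi1b(fl/fl) with Nup98(tg) and MxCre(wt), named WT by the submitters, and Gfi1b(fl/fl) with Nup98(tg) and MxCre(tg), named tg. Both groups thus share the leukaemia transgene and the floxed alleles, and WT is not a wild-type mouse. Each had 1 H3K9ac library and 1 rabbit IgG library. The IgG libraries were not analysed here, so no level has its background subtracted. Mx-Cre is driven by an interferon-inducible promoter that is active in many cell types, not in blood cells alone. The labels give neither the age of the mice nor the number of animals behind a library, and they do not say whether or when Cre was induced. Red cells were lysed before fixation in 1% formaldehyde, a step that mainly removes mature red cells and leaves nucleated precursors.

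H3K9ac is deposited on nucleosomes around active promoters and enhancers, and its level at a start site generally goes with transcription of the gene. GFI1B is a zinc finger repressor needed by the erythroid and megakaryocytic lineages. It brings the demethylase LSD1 and histone deacetylases to its targets. Red cell precursors are driven by the factors GATA1, KLF1 and TAL1 and by erythropoietin signalling, and they build haemoglobin, membrane skeleton and gas transport proteins.

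The values are log2 reads scaled to a library of 1000000, averaged over the probes (the intervals that the submitters quantified) of a gene. Whole reads could be recovered from them. For a gene with several probes the reads are given in ascending order, since the table does not say which WT count and which tg count belong to the same probe. The library totals came to 309649 WT reads and 163713 tg reads, so that a tg value rests on fewer reads. The 2 libraries also stood apart at the Y-linked genes, which the ranking leaves out: Uty held 28 WT reads and 0 tg reads, and Ddx3y 22 and 1. Gfi1b itself ranked 9177 in WT and 1626 in tg, with 12 and 108 reads over its 4 probes. It is not a member, and without probe positions it does not check the deletion. With 1 library per genotype there was no replicate and no test, and "higher" describes these 2 libraries. A count of 0 allows up to 3 reads, which is 9.69 scaled reads in WT and 18.3 in tg. Intervals are exact conditional binomial 95% intervals on a ratio of reads and cover counting error only.

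Several of the members that set the tg library apart are genes of red cell precursors, and promoters of some of these genes are shown first. The windows run from 250 bases before to 50 bases after the start site and come from RefSeq on GRCm38.p6. Of 387 members, 301 had such an entry; Epb4.9, Car2 and Bsg did not. Capitals mark matches, on either strand, to letters that certain factors prefer. For the family of GATA1 these are AGATAA or the variant form TGATAA, and for KLF factors CCNCACCC. E-boxes, which complexes of TAL1 can bind, were read as CAGCTG or the related form CAGATG. The TATA box was read as TATAAA, and the binding letters of the factor NF-Y as CCAAT. None of the marked matches overlap each other. The deposited table gives no probe position, so the reads of a gene cannot be placed in these windows. Klf1 encodes the erythroid Krüppel-like factor, Epor the erythropoietin receptor, Slc43a1 an amino acid transporter that red cell precursors make, and Ppox protoporphyrinogen oxidase of haem synthesis.
Klf1 (chr8:84901732-84902031, + strand): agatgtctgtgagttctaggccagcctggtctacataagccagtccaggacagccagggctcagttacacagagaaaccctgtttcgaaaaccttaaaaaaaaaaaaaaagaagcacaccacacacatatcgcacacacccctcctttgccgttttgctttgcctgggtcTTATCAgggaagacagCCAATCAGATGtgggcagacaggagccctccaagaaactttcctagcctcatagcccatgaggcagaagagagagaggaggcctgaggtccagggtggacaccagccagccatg
Epor (chr9:21963527-21963826, - strand): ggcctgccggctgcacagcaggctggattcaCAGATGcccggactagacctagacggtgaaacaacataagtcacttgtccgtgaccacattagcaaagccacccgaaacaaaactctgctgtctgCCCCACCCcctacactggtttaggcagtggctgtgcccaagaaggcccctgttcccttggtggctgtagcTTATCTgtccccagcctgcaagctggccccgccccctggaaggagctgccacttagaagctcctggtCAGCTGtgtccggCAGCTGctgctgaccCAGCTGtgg
Slc43a1 (chr2:84840073-84840372, + strand): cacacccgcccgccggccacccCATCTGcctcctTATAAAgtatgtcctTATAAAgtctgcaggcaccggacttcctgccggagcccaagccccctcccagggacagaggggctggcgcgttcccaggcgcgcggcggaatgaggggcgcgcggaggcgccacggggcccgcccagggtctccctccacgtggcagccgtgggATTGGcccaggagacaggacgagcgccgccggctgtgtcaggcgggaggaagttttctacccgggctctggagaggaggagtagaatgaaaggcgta
Ppox (chr1:171281137-171281436, - strand): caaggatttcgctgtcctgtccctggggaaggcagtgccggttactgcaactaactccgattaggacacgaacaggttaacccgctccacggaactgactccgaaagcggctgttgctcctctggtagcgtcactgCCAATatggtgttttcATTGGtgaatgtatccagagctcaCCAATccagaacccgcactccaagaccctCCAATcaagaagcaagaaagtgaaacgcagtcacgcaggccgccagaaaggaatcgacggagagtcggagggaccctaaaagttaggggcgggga
Klf1 had a GATA match (read as TTATCA on this strand) with its first base at -80 from the start site, CCAAT at -64 and an E-box at -59. In Epor the CACCC match lay at -124 and the GATA match, TTATCT, at -54. Epor also had 3 copies of CAGCTG just after its start site, at 13, 26 and 41. Ppox held 4 CCAAT matches between -114 and -45 and none of the 3 erythroid motifs. The RefSeq start site of Slc43a1 lay 1473 bp inside the gene as the deposited table draws it. Its window held TATAAA at -216 and -201 and neither a GATA nor a CACCC match.

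A contrast to these is given by members outside every gene list used here. Rdx, Plekha4 and Vopp1 were the highest-ranked such genes in tg with a RefSeq window, counting each shared probe once. Rdx encodes radixin, which links actin to the plasma membrane.
Rdx (chr9:52046900-52047199, + strand): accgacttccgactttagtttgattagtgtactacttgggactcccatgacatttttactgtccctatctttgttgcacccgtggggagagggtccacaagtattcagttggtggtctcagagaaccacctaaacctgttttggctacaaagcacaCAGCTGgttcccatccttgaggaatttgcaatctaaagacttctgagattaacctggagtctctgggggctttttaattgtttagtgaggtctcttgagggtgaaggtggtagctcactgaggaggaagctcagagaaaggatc
Plekha4 (chr7:45526080-45526379, + strand): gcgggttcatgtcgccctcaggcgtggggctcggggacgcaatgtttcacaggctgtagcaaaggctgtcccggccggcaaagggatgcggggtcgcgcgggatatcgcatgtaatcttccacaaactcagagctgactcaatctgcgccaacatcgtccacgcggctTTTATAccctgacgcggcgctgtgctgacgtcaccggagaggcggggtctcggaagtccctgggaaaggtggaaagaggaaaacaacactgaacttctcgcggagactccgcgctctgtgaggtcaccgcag
Vopp1 (chr6:57825076-57825375, - strand): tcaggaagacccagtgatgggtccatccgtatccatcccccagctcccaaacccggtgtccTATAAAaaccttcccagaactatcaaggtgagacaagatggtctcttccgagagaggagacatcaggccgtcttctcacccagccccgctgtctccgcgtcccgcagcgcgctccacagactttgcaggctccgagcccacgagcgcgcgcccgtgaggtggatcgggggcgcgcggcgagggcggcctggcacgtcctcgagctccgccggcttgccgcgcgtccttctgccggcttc
The Rdx window was poor in CpG (observed over expected 0.189) and held 1 E-box. Plekha4 and Ppp1r15a had the same values in the table, and their start sites lay 62 bp apart in head-to-head orientation. The window of Plekha4 therefore spans both start sites. Ppp1r15a encodes GADD34, a phosphatase subunit induced by stress.

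One member is a microRNA gene, Mir144 (chromosome 11, 78073005 to 78073070). It lies in a cluster with Mir451 that is active in red cell precursors. Its 2 mature forms are shown with the seed, bases 2 to 8, in capitals.
mmu-miR-144-5p: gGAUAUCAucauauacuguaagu
mmu-miR-144-3p: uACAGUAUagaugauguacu
The seeds differ, so the 2 arms belong to different seed groups. The Mir144 gene held 1 read in WT and 40 in tg. Its neighbour Mir451 had 2 probes, with 0 and 1 reads in WT and 9 and 40 in tg. The higher count of Mir451 in each library equalled that of Mir144, but whether these reads are the same cannot be read from the table. Averaged over its 2 probes, Mir451 had tg rank 2180 and was outside the members.

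Most members lay close to the limit that chose them. The WT gene at rank 1000 had a log2 level of 7.36, which is 51 reads for a gene with 1 probe. In tg the gene at rank 1000, which had 2 probes, was at 7.34, and the lowest 1-probe level inside the limit was 7.37, or 27 reads. A count of 51 has an exact Poisson 95% interval of 37.97 to 67.06, and a count of 27 one of 17.8 to 39.3. Counting error alone can therefore carry a gene near the limit across it. Of the 387 members, 201 (51.9%) ranked between 1001 and 2000 in WT, 137 (35.4%) between 2001 and 4000, 25 between 4001 and 8000, and 24 beyond 8000. In tg, 37 members were in the first 250 and 277 (71.6%) between ranks 501 and 1000. The lowest tg count, 27 reads, was shared by 51 members with 1 probe.

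Trim28, a corepressor for zinc finger proteins, shows how little can separate a member from a non-member. It held 51 WT reads and 27 tg reads, with a log2 ratio of 0.0019, and ranked 1002 and 924. Nudt4 (51 and 42 reads, WT rank 1005) and Drg1 (51 and 38 reads, WT rank 1007) were the next members beyond the WT limit. On the other side, Tpra1 (51 and 31 reads, WT rank 1000) was in both groups. At the tg limit, 2410017P09Rik, Ggnbp2 and Kbtbd12 took ranks 998 to 1000. Rfx3, Picalm and Hbp1 followed at 1001 to 1003 and are not members. Picalm had an averaged log2 ratio of 2.29, larger than that of most members. Its 2 probes held 1 and 102 reads in WT and 10 and 68 in tg, and its summed reads were 1.43-fold higher (1.05 to 1.94). Genes at equal reads were ordered by identifier alone. The next lowest ratios among members were those of Setd1b, Abi1, Hivep1, Zfp143, Cfl2, Paip1 and Vcp, between 0.054 and 0.12 on the log2 scale.

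**Figure D1:**
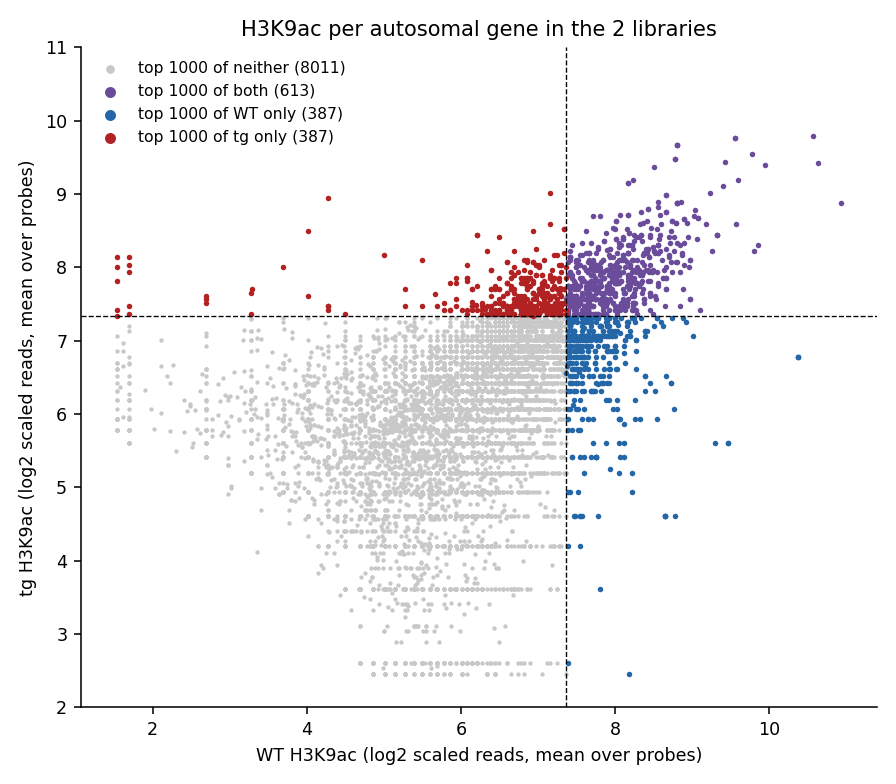
Deposited H3K9ac level (log2 scaled reads, mean over probes) of each autosomal gene in the WT library (x axis) and the tg library (y axis), with 1 point per gene. Dashed lines are the levels at rank 1000, 7.36 in WT and 7.34 in tg; the 387 members (red) fill the upper left field, most of them beside the corner and a few at the far left, where the WT library had 0 or 1 read.

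The median member had a log2 ratio of tg to WT of 0.74 (quartiles 0.46 and 1.13), against 0.045 for all ranked genes. The lowest ratio was 0.0019 and the highest 6.595. A level at least 2-fold higher in tg was found at 127 members (32.8%), and in 16.5% of all ranked genes. No member was 2-fold lower, where 15.6% of all ranked genes were. At least 4-fold higher were 30 members, against 5.44% of all genes. These shares follow from the selection, which used both levels, and are given only to describe the members. By summed reads, the 95% interval of the ratio lay above 1 for 200 members, included 1 for 186 and lay below 1 for 1 member. Of the 9269 ranked genes with recovered reads, it lay above 1 for 1190 and below 1 for 1174. The interval counts of the members also follow from the selection.

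The genes at the top of the WT library only give a mirror image. Their median log2 ratio was -0.88, and 167 of 387 (43.2%) were at least 2-fold lower in tg. At least 4-fold lower were 60 genes, against the 30 on the tg side. The order was the opposite at the extreme: a difference of 16-fold or more was reached by 19 members, and by 8 of the WT-only genes in the other direction. This lean was not particular to the members. Among all 9398 ranked genes, 103 differed by that much with tg above WT, and 20 with tg below it. The lowest values also lay higher in tg, where 1 read is 6.11 scaled reads, against 3.23 in WT. How far depth shaped these counts was not tested. In 5 members WT had 0 reads and in another 5 it had 1 read. The members thus include a small group with next to no WT reads, while most were also acetylated in WT and ranked lower there.

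**Figure D2:**
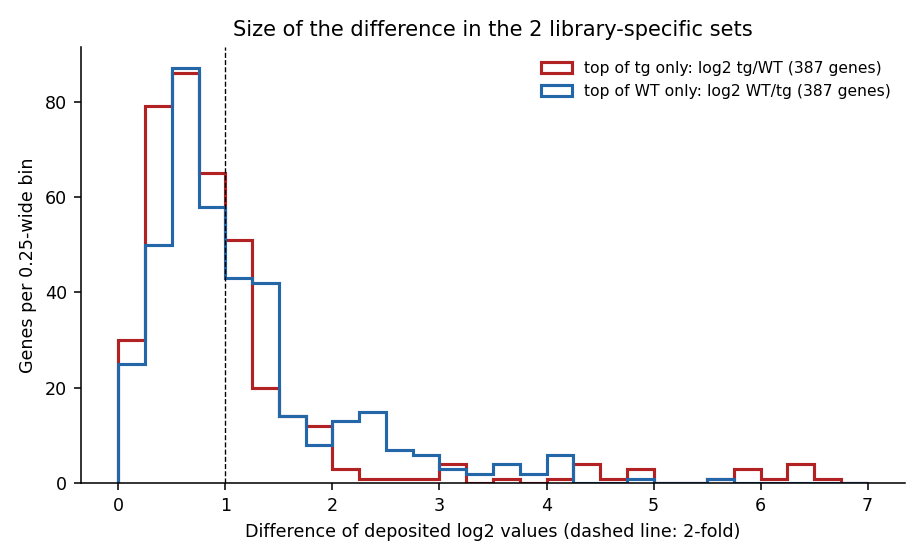
Number of genes (y axis) by size of the difference in deposited log2 values (x axis), in bins of 0.25, for the 387 members (red, tg over WT) and the 387 genes at the top of WT only (blue, WT over tg). Both sets peak below the dashed 2-fold line; the members have fewer genes between 2 and 3 and a separate small group near 6.

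The largest differences were at genes with almost no H3K9ac reads in WT. Dnaja4, which encodes a co-chaperone of HSP70 (chromosome 9, 54698873 to 54716315), held 0 WT reads and 46 tg reads. Counted against a floor of 3 reads for the empty library, that is at least 29.0-fold higher. This floor leaves out the counting error of tg, and the interval itself starts at 22.7. Epb4.9, the gene of the membrane skeleton protein dematin (chromosome 14, 70602184 to 70636048), held 0 and 42 reads. Against the same floor that is 26.5-fold higher, with an interval from 20.6. At Slc43a1 the reads were 0 and 37 (at least 23.3-fold) and at Epor (chromosome 9, 21958899 to 21963576) 0 and 28 (at least 17.7-fold). In each of these genes tg was past its limit and WT was empty.

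Kbtbd12 was empty in WT at both of its probes and held 19 and 37 reads in tg. Against the floor that is 35.3-fold higher, with an interval from 27.8. It encodes a Kelch and BTB domain protein. Slc25a21, a mitochondrial carrier of oxodicarboxylates (chromosome 12, 56712634 to 57197472), had 1 read in WT and 46 in tg, a ratio of 87.0 with an interval from 14.9 to 3510. Sphk1, sphingosine kinase 1 (chromosome 11, 116530925 to 116536674), had 1 and 43 reads (81.3, 13.8 to 3286). Mir144 had 1 and 40 (75.7, 12.8 to 3062). The wide intervals come from the single WT read, and only their lower ends are informative.

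Nckap1, an actin regulator of the WAVE complex, held 1 and 29 reads. At Lmna, the gene of the nuclear lamins A and C, they were 1 and 27. Tmem56 had 2 WT reads and 32 tg reads, and Plscr4, a phospholipid scramblase family gene, 2 and 31. Mfsd2b, which encodes the exporter of sphingosine-1-phosphate in red cells and platelets, had 4 and 42 (19.9-fold, 7.21 to 76.3). Together with Sphk1, whose product makes that lipid, it was picked out after the values were seen. Rabgap1l (3 and 33 reads), Vopp1 (5 and 59) and the circadian factor gene Clock (5 and 32) followed. All of these had at most 5 reads in WT, below the median of 22 for genes with 1 probe.

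The gene model Gm13847 had the second highest tg level of all members, with 6 WT reads and 81 tg reads (25.5-fold, 11.2 to 71.6). Pim1, a serine/threonine kinase induced by cytokine receptors, had probes of 0 and 110 reads in WT and 12 and 184 in tg. Its summed reads were 3.37-fold higher (2.66 to 4.30), while its averaged log2 ratio was 3.16, since the empty WT probe weighs as much as the full one. Mkrn1, a ubiquitin ligase gene, and Gm10244 share 1 probe with 23 and 57 reads (4.69-fold, 2.84 to 7.97). The bile phospholipid transporter gene Abcb4 had 14 and 45 reads (6.08-fold, 3.28 to 11.99) and the mitochondrial carrier gene Slc25a25 12 and 34 (5.36-fold, 2.71 to 11.4).

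**Figure D3:**
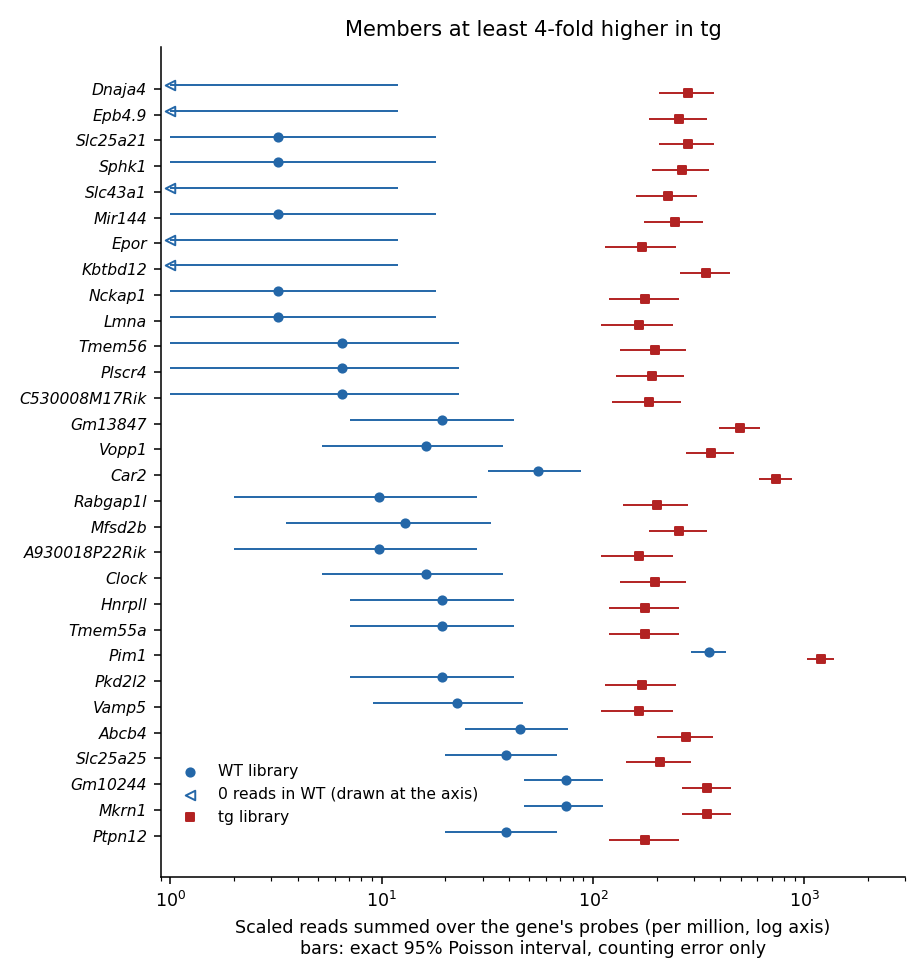
Reads scaled to 1000000, summed over a gene's probes (log x axis), in WT (blue) and tg (red) for the 30 members at least 4-fold higher in tg, ordered by log2 ratio. Bars are exact 95% Poisson intervals for counting error only, ending at the left axis where they reach beyond it, and open triangles stand for 0 reads; the WT and tg bars do not overlap for any of these genes.

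Erythroid genes were the lineage that recurred among the members. Of 78 genes with a probe on 3 lists (erythroid identity and transcription factors, haem synthesis with iron and globin, and red cell membrane and transport), 9 were members (11.5%). One was at the top of WT only (1.28%), 3 were at the top of both libraries and 65 in neither. Of all ranked genes, 4.12% were members. The lists were put together with earlier results of these data known. More cells of a lineage in the marrow sampled and more acetylation per cell cannot be told apart in these bulk samples.

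Klf1 and Epor were the members among 23 identity genes. Klf1 (chromosome 8, 84901928 to 84905295) held 31 WT reads and 40 tg reads, 2.44-fold higher (1.49 to 4.04), and ranked 2608 in WT and 314 in tg. It was thus well acetylated in WT, unlike Epor, which was empty there. Ikzf1 and Tfrc, which other blood cells also use, were at the top of both libraries. Cited2, a coactivator-binding factor, was at the top of WT only, with 79 and 26 reads.

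Among 30 haem, iron and globin genes the members were Ppox and Fth1. Ppox (chromosome 1, 171275990 to 171281186) held 19 and 31 reads (3.09-fold, 1.69 to 5.78). Fth1, the ferritin heavy chain gene used in all tissues, held 29 and 27 (1.76-fold, 1.00 to 3.08). The list as a whole leaned the same way: 19 of its 30 genes were at least 2-fold higher in tg, where 16.5% of all ranked genes were, and 1 was at least 2-fold lower, where 15.6% of all were.

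Red cell membrane and transport genes gave the most, 5 of 26 (19.2%). Beside Epb4.9 and Slc43a1 these were Car2, Bsg and Bnip3l. Car2, carbonic anhydrase 2 (chromosome 3, 14886426 to 14900769), had 3 probes with 1, 2 and 14 reads in WT and 16, 38 and 66 in tg. Even the lowest tg probe was above the highest WT probe after scaling, and the sum was 13.4-fold higher (7.999 to 23.7). Bnip3l, the receptor by which maturing red cells clear mitochondria, held 22 and 29 reads (2.49-fold, 1.38 to 4.55). Bsg, basigin of the Ok blood group and a partner of lactate transporters, held 32 and 33 (1.95-fold, 1.16 to 3.28). Slc16a1, a lactate transporter gene that pairs with basigin, was a member through 28 and 38 reads (2.57-fold, 1.53 to 4.34).

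The rank limit shows only part of the erythroid genes that were higher in tg. Of 36 genes on the 3 lists that were at least 4-fold higher (5.44% of all ranked genes were), 4 were members and 32 were at the top of neither library. Among the 65 genes in neither, 43 were at least 2-fold higher, against 16.5% of all ranked genes, at a median tg rank of 3183. These counts, like the other whole-list counts, use log2 values averaged over probes, which can differ from summed reads. Slc14a1, for example, counted as 2-fold higher at a log2 ratio of 1.56, with 45 summed WT reads and 20 tg reads. The anion exchanger gene Slc4a1 had 12 and 70 reads (tg rank 2182), Aqp1 4 and 47 (1450), the Rh-associated glycoprotein gene Rhag 0 and 16 (2739) and the adult globin gene Hbb-b1 0 and 13 (3784). These were strongly different and yet far from the most acetylated genes of the tg library.

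Markers of other blood lineages were nearly missing among the members. The lists for neutrophils (8 genes with a probe), monocytes and macrophages (13), megakaryocytes (7), dendritic cells (7), T and NK cells (3), eosinophils, basophils and mast cells (4) and stem and progenitor cells (19) had 0 members. Interferon-stimulated genes (23) also had 0. Some of these were at the top of WT only: 2 genes of the monocyte list, 4 of the interferon list and 2 of the megakaryocyte list. Bst2, one of the interferon genes, is also on the dendritic cell list. The monocyte pair was Sirpa, with 90 WT reads and 0 tg reads, and Mpeg1, with 195 and 20 over 2 probes. The megakaryocyte pair was Fli1 (99 and 10), also on the stem cell list, and Plek (83 and 10). With so few genes on a list, 0 of 3 or 0 of 8 says little by itself.

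Over whole lists, 9 of 13 monocyte genes and 7 of 8 neutrophil genes were at least 2-fold lower in tg, with medians of -2.26 and -1.94 on the log2 scale. The interferon list had 18 of 23 genes 2-fold lower, and the dendritic cell list 5 of 7. Of all ranked genes, 15.6% were. Most genes of these lists were thus lower in the same library in which the erythroid genes were higher. Other lists were mixed or went the other way. Of 7 megakaryocyte genes, 2 were at least 2-fold higher and 3 lower, and of 19 stem and progenitor genes 5 and 8. Of 5 B cell genes, 2 were higher and 0 lower, and of 3 T and NK cell genes 1 and 0. Of all ranked genes, 16.5% were at least 2-fold higher. The part of marrow composition in the erythroid members was not tested.

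The B cell list gave 1 member of 5, Vpreb1, the surrogate light chain gene of pre-B cells. It held 33 WT reads and 30 tg reads (1.72-fold, 1.01 to 2.91), and it has the same values as its neighbour Top3b, so the probe cannot be assigned to either. The member with the highest tg level was Cd24a (chromosome 10, 43579169 to 43584262), the heat-stable antigen found on B cell precursors, erythroid precursors and neutrophils. It held 44 WT reads and 85 tg reads (3.65-fold, 2.51 to 5.38) and ranked 1353 in WT and 20 in tg. Tnfrsf14, the HVEM receptor of lymphoid and myeloid cells, held 25 and 49 (3.71-fold, 2.25 to 6.26). Neither is specific to 1 lineage.

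**Figure D4:**
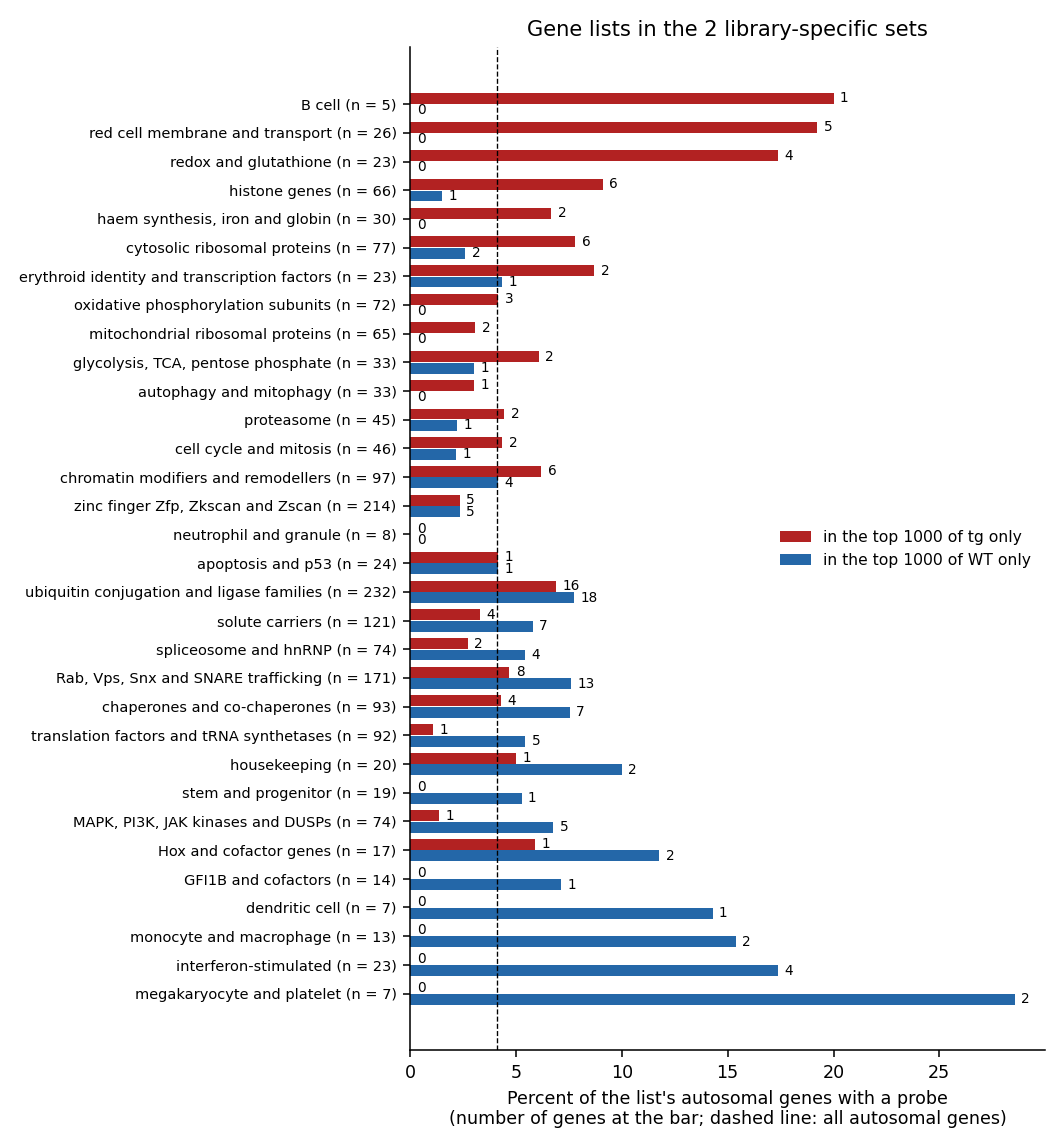
Percent of each list's autosomal genes with a probe (x axis) that were at the top of tg only (red) or of WT only (blue), for lists of at least 5 genes, with the number of genes at each bar and the 4.12% of all genes as a dashed line. Red cell, redox and histone lists extend furthest to the tg side among lists of over 20 genes, and interferon, monocyte and megakaryocyte lists have blue bars only.

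Histone genes were another recurring group. Of 66 with a probe, 6 were members (9.09%), 1 was at the top of WT only and 16 were at the top of both. All 6 members lie in the histone cluster on chromosome 13 and code for replication-dependent histones. Hist1h2ak held 38 WT reads and 59 tg reads (2.94-fold, 1.92 to 4.54), Hist1h1a 38 and 44, and Hist1h2bn 22 and 34. Hist1h4k (19 and 29), Hist1h2ag (24 and 28) and Hist1h4f (25 and 27) completed the group. Each was at least 2-fold higher. Hist1h4k, Hist1h2ak and Hist1h2bn lie within 2889 bp of the next one, and near-identical coding copies make the placing of reads among such genes uncertain.

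Redox genes gave 4 members of 23 (17.4%) and none at the top of WT only. Prdx2, the abundant peroxiredoxin of red cells, held 32 and 39 reads (2.31-fold, 1.41 to 3.80), but Rnaseh2a had the same values and its start site is 3546 bp away. Gclm, the regulatory subunit of glutathione synthesis, held 21 and 37 (3.33-fold, 1.90 to 5.99). Msra, a methionine sulfoxide reductase gene, held 24 and 27 (2.13-fold, 1.18 to 3.85). Superoxide dismutase gene Sod1 held 38 and 33 (1.64-fold, 0.998 to 2.69), an interval that includes 1.

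Genes of protein synthesis and energy metabolism were members in small numbers, with differences of varied size. Cytosolic ribosomal protein genes gave 6 of 77 (7.79%), with 13 more at the top of both and 2 at the top of WT only. Rpl14 (31 and 38 reads, 2.32-fold, 1.41 to 3.85) and Rps24 (24 and 28, 2.21-fold, 1.23 to 3.98) were past 2-fold. For Rps3a, with 50 and 30 reads, the interval was 0.697 to 1.82. Oxidative phosphorylation gave 3 of 72 (Ndufs1, Ndufa2 and Ndufa6) and mitochondrial ribosomal proteins 2 of 65, both near the share of all genes. Taldo1, transaldolase of the pentose phosphate pathway, held 16 and 29 (3.43-fold, 1.801 to 6.76), while the glycolytic gene Gapdh held 46 and 28 (1.15-fold, 0.693 to 1.88).

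Among the lists of named genes, the ubiquitin families gave the most members, 16 of 232 genes (6.90%), yet 18 others of the same list were at the top of WT only. Rnf19a, a ligase gene, held 28 and 56 reads (3.78-fold, 2.36 to 6.19), and Ube2v1, a conjugating enzyme variant, 39 and 50 (2.43-fold, 1.56 to 3.79). Fbxo9 had 35 and 45 and Fbxo7 27 and 34 reads, both past 2-fold. Trim28, Ube2l3 (48 and 29 reads) and Ube2n (45 and 29) were near equality. This list was therefore as common on the WT side.

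Chromatin regulators gave 6 members of 97 genes, and 4 others on the WT side. None of the 6 was 2-fold higher: Smarca4 and Smarca5, ATPases of remodelling complexes, held 50 and 34 and 43 and 30 reads, and the maintenance methyltransferase gene Dnmt1 held 41 and 28. Setd1a (47 and 30) and Setd1b (51 and 28), both H3K4 methyltransferases, were no further apart. Each of these 5 intervals included 1. The sixth, Mll5, is taken up below with the genes of several probes.

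Solute carriers, chaperones and trafficking genes each had fewer members than genes at the top of WT only, and their shares lay close to the 4.12% of all genes. Solute carriers gave 4 of 121 (3.31%), against 7 on the WT side, and all 4 (Slc25a21, Slc43a1, Slc25a25 and Slc16a1) were past 2-fold. Chaperones gave 4 of 93 (4.30%), against 7, of which Dnaja4 stood apart from Dnajb11 (35 and 27 reads) and Bag5 (37 and 27). Trafficking genes gave 8 of 171 (4.68%), led by Rab24 and Snx4, against 13 on the WT side. This list was caught by symbol, which also took in Cops5, a subunit of the COP9 signalosome. Copb1, a coat protein of Golgi vesicles, held 21 and 27 (2.43-fold, 1.32 to 4.52) and Vamp5, a vesicle SNARE, 7 and 27 (7.30-fold, 3.10 to 19.8).

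Among cell cycle genes, Cdk1 (41 and 35 reads, 1.62-fold, 0.998 to 2.60) and Cenpa (39 and 32) were 2 of 46, and Cdk6 was at the top of WT only. The p53 antagonist Mdm4 held 37 and 40 (2.05-fold, 1.28 to 3.29). Hoxc6 was the single member of 17 Hox genes and cofactors, and Hoxb7 and Hoxb8 were at the top of WT only. Of 14 genes for GFI1B and its cofactors, of 3 stromal and endothelial genes and of 2 genes typical of liver, neuron, muscle or testis, 0 were members.

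The remaining lists held few members. Proteasome genes gave 2 of 45 (Psma6 and Psmg2), autophagy genes 1 of 33 (Bnip3l, already described), apoptosis genes 1 of 24 (Mdm4), and housekeeping genes 1 of 20 (Gapdh). Spliceosome genes gave 2 of 74, of which Hnrpll, an RNA-binding regulator of splicing, held 6 WT reads and 29 tg reads (9.14-fold, 3.73 to 26.9). Prpf4b, a splicing kinase gene, held 37 and 38. Translation factors gave 1 of 92, the elongation factor gene Eef1b2 (34 and 38 reads), whose probe is shared with Ndufs1. Zinc finger genes of the Zfp, Zkscan and Zscan families gave 5 of 214, the same number as on the WT side, and of these Zfp410 (38 and 44 reads) was past 2-fold. These shares ran from 1.09% to 5%, around the 4.12% of all genes. On the WT side, spliceosome genes gave 4 and translation factors 5. Most members, 255 of 387, were in none of the lists and 47 were unnamed or non-coding models.

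Of the members outside all lists, Rdx held 44 WT reads and 63 tg reads (2.71-fold, 1.81 to 4.08), and Plekha4 with Ppp1r15a 50 and 60 (2.27-fold, 1.53 to 3.37). Bmp2k (50 and 48), Tab1 (47 and 47) and the integrin beta 1 gene Itgb1 (46 and 47) also ranked among the 12 highest named members in tg, with genes that share a probe counted once. Their reads were almost equal before scaling for depth, and their log2 ratios lay between 0.86 and 0.95. Further down, Myd88, an adaptor gene of Toll-like receptors, held 19 and 36 reads (3.58-fold, 2.002 to 6.61), and the IKK-alpha gene Chuk held 18 and 36 (3.78-fold, 2.09 to 7.08). Both were picked after their values were seen and stand for no group.

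A small set of members owe their place to the averaging of log2 values over probes. Of the 387, 367 had 1 probe, 18 had 2 and 2 (Car2 and Hoxc6) had 3. Of these 20, 6 had lower summed reads in tg than in WT after scaling, while their averaged level was higher. Mll5, now called Kmt2e, held 3 and 306 reads in WT and 7 and 110 in tg, so after scaling its highest probe count was lower in tg and its lowest was higher. Its sum was 0.716 of the WT value (0.574 to 0.889), the 1 interval below 1. Nrf1, a regulator of nuclear genes for mitochondria, showed the same with 3 and 159 reads against 15 and 61 (0.887, 0.667 to 1.17).

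Hoxc6 had probes of 3, 71 and 205 reads in WT and 9, 43 and 76 in tg (0.868, 0.698 to 1.07). Dnajb4 had 4 and 152 against 14 and 57, and Tmpo 11 and 201 against 11 and 82. Tnpo1 completed the 6 with 21 and 113 against 21 and 40. In all of them the highest probe count was lower in tg after scaling. Ranking all genes by summed reads instead gave 433 members, of which 121 were among the 387 (31.3% of the 387). That ranking favours genes with several probes by construction.

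Plcl2 went the other way, with 4 and 62 reads in WT and 9 and 119 in tg, and both its lowest and its highest count were higher after scaling (3.67-fold, 2.71 to 5.01). Dido1 had 111 summed reads in WT and 69 in tg. For members with 1 probe, the mean over probes and the sum are the same thing.

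Some members are counted more than once. Neighbouring genes with identical values, taken to share a probe, made up 100 of the 387 members (25.8%) in 48 sets, against 16.2% of all ranked genes. Such genes made up 26.4% at the top of WT only, 37.2% at the top of both and 13.7% in neither. Start sites were known for 27 pairs, and 16 of these (59.3%) were head to head within 1000 bp. The head-to-head share was also 59.3% at the top of WT only, 69.8% at the top of both and 44.5% in neither. Dclre1b with Ap4b1, Hadha with Hadhb, and Supt6h with Sdf2 are examples of such pairs, and their reads cannot be assigned to either start site.

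The promoters of the members had CpG ratios near those of other genes. The median CpG ratio (observed over expected) was 0.84 for 301 members, 0.81 for all 7280 ranked genes with an entry, 0.87 at the top of WT only and 0.92 at the top of both. A ratio under 0.6 was found for 19.3% of members and 20.7% of all. Within the members the share was 38.1% (8 of 21) for genes at least 4-fold higher and included Epor (0.266) and Sphk1 (0.257). Klf1, with a smaller difference, had 0.152. The genes at the top of WT only that were at least 4-fold lower had a share of 47.2% (17 of 36). Low CpG ratios were thus found among large differences in both directions.

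**Figure D5:**
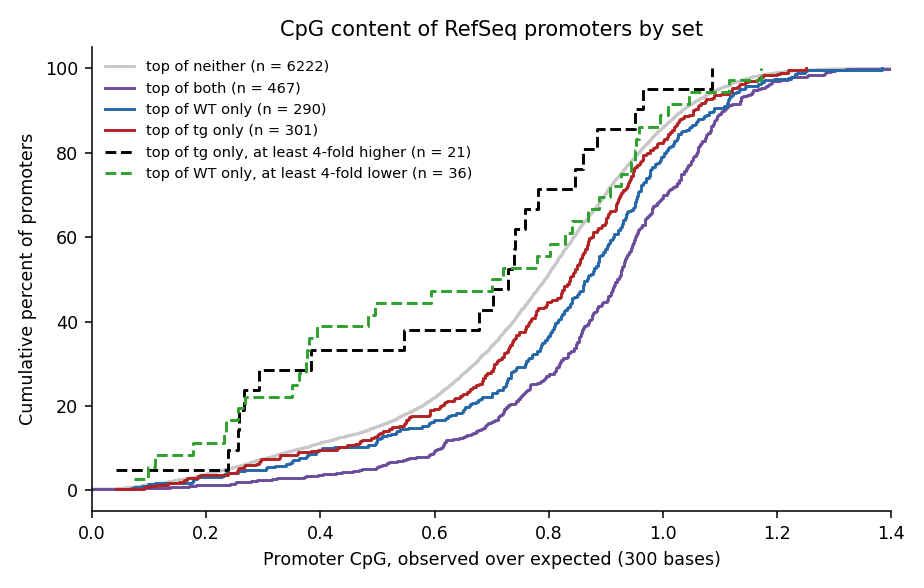
Cumulative percent of RefSeq promoters (y axis) by CpG observed over expected in 300 bases (x axis), for members (red), the other sets and the genes with at least a 4-fold difference (dashed). The members run close to the genes in neither group, and both dashed curves lie to the left of the others at ratios under 0.6.

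Over all members, erythroid motif letters were no more frequent in promoter windows than among all ranked genes. A GATA match on either strand was in 8.0% of member windows, 9.2% of those of all ranked genes and 18.6% of all RefSeq windows outside X and Y. CCNCACCC was in 16.6% of members and 18.8% of ranked genes. An E-box match was in 17.9% against 22.4%, CCAAT in 30.9% against 38.9% and TATAAA in 9.0% against 6.6%. A match is a description of letters in 300 bases and not a bound site, and enhancers were outside these windows.

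By chromosome, the members followed the number of ranked genes. The share of a chromosome's genes that were members ran from 3.10% (11 of 355 on chromosome 15) to 5.87% (23 of 392 on chromosome 13, where the 6 histone genes lie), against 4.12% overall. Of 374 members matched to RefSeq, 96.0% were protein coding.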

How the data were processed

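H3K9ac ChIP-seq libraries of leukaemic mouse marrow, 1 per genotype, were compared; 2 IgG libraries were not analysed here. Per the file headers, the deposited table gives log2 values for each gene as a mean over probes with its standard deviation. The submitters' processing notes name CASAVA 1.8.2, BWA, SAMtools and FastQC, with the builds GRCm38 and mm10. The sources used here give no account of probe placement, duplicate removal or the quantifying program.

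The scale was inferred: 100% of the linear values of 7423 genes with 1 probe were whole multiples, within 0.01 of a read, of 3.23 (WT) and 6.11 (tg), with 0 reads entered as 0.9 of a read. This is scaling to 1000000 with totals of 309649 and 163713 reads. Probe counts were recovered from mean and standard deviation for genes of up to 4 probes (9485 genes), by a procedure tested on simulated data.

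Genes outside X and Y were ranked by the deposited log2 means, with ties broken by identifier. Differences are of the deposited log2 values; folds are of summed reads over library totals, given with exact 95% intervals from the conditional binomial (scipy 1.17.1), or against a floor of 3 reads where WT was empty. The reads carry no molecular identifiers and need not be independent molecules. Neighbours within 100000 bp with identical values were treated as sharing a probe. The members and the 37 gene lists and families were chosen with earlier results of these data known. Named are the members with the highest tg level, the highest and lowest ratios, the most probes, up to 6 per list by tg level, and the genes beside each limit; others were picked after their values were seen. Alternatives were other rank limits, folds and rankings. A few results that the rule would name are not reported here.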

Additional observations from a re-analysis of the deposited data

Results flagged for a closer look

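The X and Y chromosomes were left out of the ranking, and 217 genes of the table lie there (215 on X and 2 on Y). Measured against the same limits, 1 of them would have been past the tg limit and below the WT limit. It was Kdm6a (X, 18162575 to 18279936), which encodes the H3K27 demethylase UTX and is known to escape X inactivation. Over 2 probes it held 85 WT reads and 86 tg reads, a log2 ratio of 1.13. A further 4 X or Y genes were past the WT limit only. Y-linked Uty had 28 WT reads and 0 tg reads, so the libraries also differed in Y-chromosomal signal, and its part in the Kdm6a value was not tested.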

How the results depend on the processing

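The number of members is set by the limit: 225 at rank 500 (110 of them among the 387), 718 at rank 2000 (186 shared), 580 at rank 1500, and 186 where a WT rank beyond 2000 was asked for. Taking shared probes once gave 402 (294 shared), genes with 1 probe 386 (363 shared) and summed reads 433 (121 shared). The count of 127 members at least 2-fold higher became 46 at 3-fold and 30 at 4-fold, 124 by summed reads and 115 after centring on the median gene. The median log2 ratio stayed between 0.73 and 0.76. Erythroid, haem and red cell genes made up 4 of the 225 members at rank 500 and 21 of the 718 at rank 2000. With shared probes once they made up 11 of 402, against 9 of 387. Among 115 further values for single lists and promoters, 43 moved by more than their limit. These are counts and percentages, which have no sign, so a reversal could not occur. A list with 0 members in both settings was scored as unmoved.

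No paired analysis was possible because each genotype had 1 library, and leaving out a replicate could not be run for the same reason. At the tg limit a gene with 1 probe rests on 27 reads, and 186 of the 387 intervals included 1.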

Other observations

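A few more members in no list are given as values. Ctsd, the gene of the lysosomal protease cathepsin D, held 29 WT reads and 32 tg reads (2.09-fold, 1.22 to 3.58). Rictor, the subunit that defines the mTORC2 kinase complex, held 36 and 44 reads (2.31-fold, 1.45 to 3.70), and the insulin receptor substrate gene Irs2 27 and 35 (2.45-fold, 1.44 to 4.21). Glul, glutamine synthetase, held 26 and 41 (2.98-fold, 1.78 to 5.08) and shares its values with 5830403L16Rik. These genes were picked after their values were seen and stand as values of 2 libraries.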
